A study of Mus musculus with 12 samples.

Results

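The 3 FoxO genes *Foxo1*, *Foxo3* and *Foxo4* and 7 ubiquitin ligase genes linked to muscle wasting, *Fbxo32*, *Trim63*, *Fbxo30*, *Fbxo31*, *Fbxo21*, *Fbxo40* and *Traf6*, were followed in 3 tissues of mice given corticosterone (CORT, the main glucocorticoid of rodents). They were picked by gene symbol, with earlier results of these data known. All 10 were found among the 22273 entries of gastrocnemius and the 22252 entries of liver and of gonadal white adipose tissue (WAT). All mice were males of the C57BL/6J background in which both copies of exon 3 of *Nr3c1*, the glucocorticoid receptor (GR) gene, were floxed. GRfl/fl mice (GRff in the sample titles) had no Cre and kept the receptor. GR-mKO mice also carried Cre under the promoter of *Acta1*, the skeletal actin gene. The deletion was thus limited to myofibres and left other cells of the muscle, the liver and the WAT with the receptor. From 8 weeks of age the mice drank 1% ethanol (vehicle), or 1% ethanol with 100 µg/mL CORT, for 4 weeks. Each of the 12 combinations of tissue, genotype and treatment was 1 RNA-seq library made from the pooled RNA of 3 mice.

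There was thus 1 library per group and no replicate, so no p-value is given and the spread between pools is unknown. Levels are expected counts-per-million of the library total (CPM). The libraries held 19394572 to 20940660 expected counts, so that 3 counts, the smallest number read as a signal, equal 0.143 to 0.155 CPM. A gene was called changed when its log2 ratio, taken with 0.5 CPM added to each library, passed 1.5-fold (0.58 on the log2 scale), and "rose" and "fell" are used only of such genes. The values in parentheses after a log2 value are its 95% counting interval, which covers counting error alone. Counts of called genes are set beside the percentage of all tested entries (those above 0 in all 4 libraries of the tissue) that passed the same fold. *Nr3c1* in gastrocnemius was at 113 CPM in GRfl/fl vehicle and 90.4 CPM in GRfl/fl CORT, against 46.4 CPM in GR-mKO vehicle and 35.5 CPM in GR-mKO CORT, which fits the genotype labels. The 5 fibre markers (*Acta1*, *Ckm*, *Myh4*, *Mylpf*, *Tnnt3*) summed to between 72754 and 104419 CPM in gastrocnemius, the 5 hepatocyte markers to between 63850 and 125323 CPM in liver and the 5 adipocyte markers to between 17533 and 27514 CPM in WAT, so each tissue carried the markers of its label.

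FoxO proteins are transcription factors that insulin and IGF-1 signaling, through the kinase Akt, keeps out of the nucleus. When that signal wanes they enter the nucleus and switch on genes for protein breakdown, among them *Fbxo32*, which encodes the F-box protein atrogin-1, and *Trim63*, which encodes the RING-finger ligase MuRF1. An F-box protein is the part of an SCF ubiquitin ligase that binds the substrate, whereas a RING-finger ligase binds it without an SCF scaffold. In both cases the substrate is tagged with ubiquitin, which for atrogin-1 and MuRF1 sends it to the proteasome. In muscle these genes are known as atrogenes because they rise in many kinds of wasting, and glucocorticoids act on them both through the GR and through the FoxO factors.

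In gastrocnemius, CORT raised 4 of the 10 genes past 1.5-fold in GRfl/fl mice, namely *Foxo1*, *Foxo3*, *Fbxo32* and *Trim63*, and lowered 1, *Fbxo21*. Of all 13543 tested entries 22.6% passed the fold in this comparison, 8.36% upward and 14.2% downward. In GR-mKO mice CORT raised none of the 10 past 1.5-fold and lowered 1, again *Fbxo21*, where 18.9% of all entries passed, 4.32% upward and 14.6% downward. The median log2 change of the 10 genes was 0.20 in GRfl/fl and 0.07 in GR-mKO gastrocnemius, where the medians of all tested entries were −0.08 and −0.10.

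**Figure D1:**
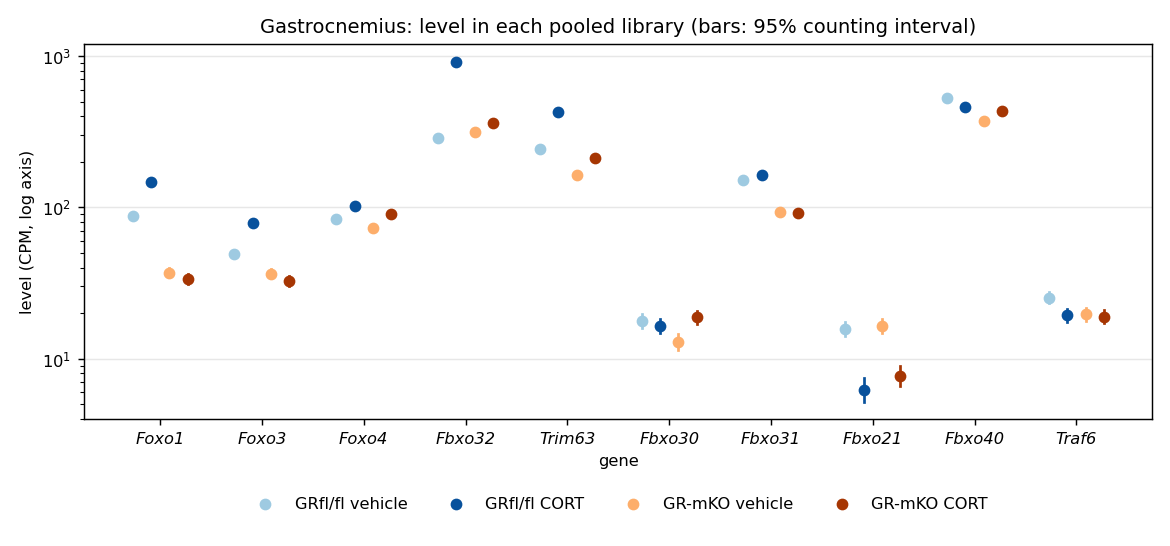
Level of each gene (CPM, log axis) in the 4 gastrocnemius libraries, 1 point per pooled library, with its 95% counting interval as a bar (smaller than the point for the abundant genes). *Foxo1*, *Foxo3*, *Fbxo32* and *Trim63* have their highest point in the GRfl/fl CORT library, and *Fbxo21* has its 2 lowest points, 6.20 and 7.68 CPM, in the 2 CORT libraries.

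Of the FoxO factors, *Foxo1* (chromosome 3, 52268336 to 52353221, plus strand, GRCm38) differed most between the genotypes. It is a main nuclear effector of insulin signaling in muscle, liver and fat. It was at 87.8 CPM in GRfl/fl vehicle, 147 CPM in GRfl/fl CORT, 37.0 CPM in GR-mKO vehicle and 33.4 CPM in GR-mKO CORT. Both GR-mKO libraries lay below both GRfl/fl libraries. With CORT *Foxo1* rose by 0.75 (0.66 to 0.84) in GRfl/fl mice, and its log2 change in GR-mKO mice was −0.15 (−0.30 to 0.00). The second change minus the first was −0.89 (−1.07 to −0.72). Without CORT the gene was already lower in GR-mKO muscle, at 42.2% of the GRfl/fl level, and under CORT it was at 22.7%.

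*Foxo3* (chromosome 10, 42181841 to 42276755, minus strand), the FoxO factor best known for switching on atrogin-1, has 5 protein-coding transcripts, and its entry, which bears the identifier of 1 of them, was at 49.3 CPM in GRfl/fl vehicle and 78.3 CPM in GRfl/fl CORT, and at 36.4 CPM in GR-mKO vehicle and 32.4 CPM in GR-mKO CORT. Its pattern over the 4 libraries was like that of *Foxo1*, but under vehicle the genotypes lay closer together, with a log2 difference of −0.43 (−0.58 to −0.30) that did not pass 1.5-fold. The CORT change in GR-mKO mice minus that in GRfl/fl mice was −0.83 (−1.03 to −0.65).

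*Foxo4* (chromosome X, 101254528 to 101260873, plus strand), which Akt also phosphorylates, did not share this pattern. It was at 84.2 and 103 CPM in the vehicle and CORT libraries of GRfl/fl mice and at 73.0 and 90.2 CPM in those of GR-mKO mice. Its log2 change with CORT was 0.29 (0.19 to 0.38) in GRfl/fl mice against 0.30 (0.21 to 0.41) in GR-mKO mice, and the difference between the 2 changes was 0.02 (−0.12 to 0.16).

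Divided by the length of the retained transcript, the 3 FoxO genes can be set side by side, and *Foxo4* was the most abundant in all 4 gastrocnemius libraries. The 3 genes summed to 43.9 CPM per kb in GRfl/fl vehicle, 60.9 in GRfl/fl CORT, 32.7 in GR-mKO vehicle and 37.1 in GR-mKO CORT. *Foxo4* made up 60.6% and 53.3% of that sum in GRfl/fl mice and 70.6% and 76.9% in GR-mKO mice, vehicle first. The share of *Foxo1* was 23.1% and 27.9% in GRfl/fl mice and 13.1% and 10.4% in GR-mKO mice. The makeup of the family also differed by tissue. *Foxo1* led in all 4 WAT libraries, with 51.3% to 57.4% of the sum, and no member exceeded 48.3% in liver.

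**Figure D2:**
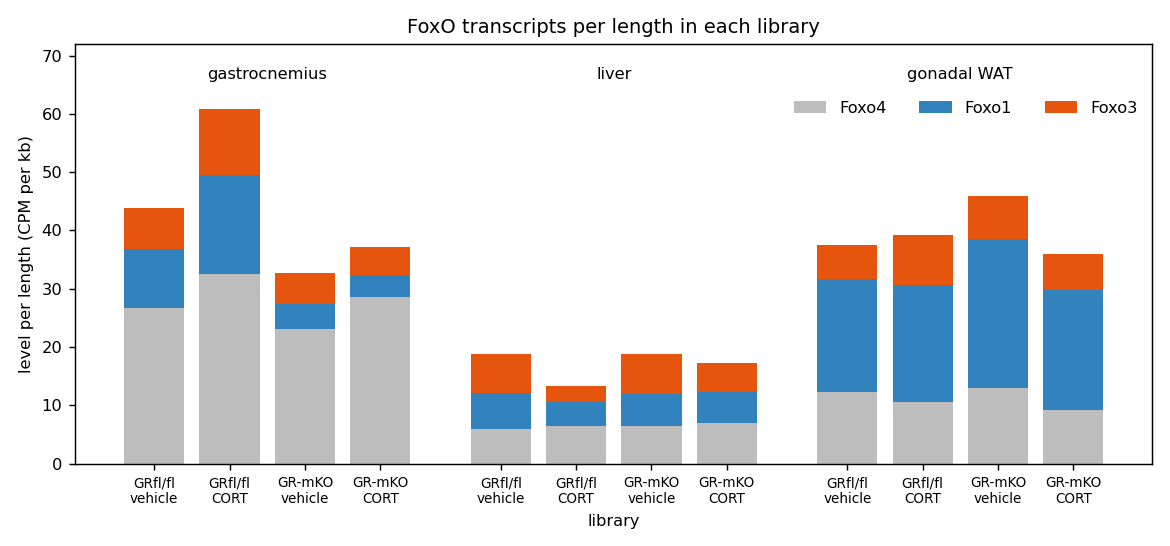
Stacked levels per transcript length (CPM per kb, axis from 0) of *Foxo4*, *Foxo1* and *Foxo3* in each of the 12 pooled libraries. In gastrocnemius the sum is highest in GRfl/fl CORT, at 60.9, and the *Foxo1* part is small in both GR-mKO libraries, whereas *Foxo1* is the largest part in WAT.

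*Fbxo32* (chromosome 15, 58175879 to 58214932, minus strand), whose product atrogin-1 marks MyoD and the translation factor eIF3f for breakdown, had the largest increase of the 10 genes. It was at 287 CPM in GRfl/fl vehicle and at 913 CPM in GRfl/fl CORT, whereas the GR-mKO libraries were at 316 and 359 CPM. The GRfl/fl CORT library thus stood alone, at 318% of its vehicle library, and the other 3 libraries lay within 287 to 359 CPM. The CORT change in GR-mKO mice minus that in GRfl/fl mice was −1.48 (−1.55 to −1.42), the largest of the 10 genes. Under vehicle the log2 difference between the genotypes was 0.14 (0.08 to 0.19).

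*Trim63* (chromosome 4, 134315120 to 134329629, plus strand), whose product MuRF1 attacks myosin and other thick-filament proteins, was at 244 CPM in GRfl/fl vehicle, 425 CPM in GRfl/fl CORT, 163 CPM in GR-mKO vehicle and 211 CPM in GR-mKO CORT. The GRfl/fl CORT library was again the highest, but the other 3 were further apart than for *Fbxo32*. Under vehicle the log2 difference of GR-mKO over GRfl/fl muscle was −0.58 (−0.64 to −0.51) for *Trim63*, just inside 1.5-fold by library totals and past it, at −0.66, after scaling by trimmed means (TMM). With CORT it rose by 0.80 (0.75 to 0.86) in GRfl/fl mice, whereas in GR-mKO mice its log2 change was 0.37 (0.31 to 0.44), and the CORT change in GR-mKO mice minus that in GRfl/fl mice was −0.43 (−0.51 to −0.35). The ratio of *Fbxo32* to *Trim63* CPM was accordingly 1.18 (1.14 to 1.23) in GRfl/fl vehicle, 2.15 (2.09 to 2.20) in GRfl/fl CORT, 1.94 (1.86 to 2.02) in GR-mKO vehicle and 1.70 (1.63 to 1.76) in GR-mKO CORT, so it increased with CORT in one genotype and decreased in the other.

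The promoter of *Trim63* is shown because it holds, side by side, the letters of a GR element and of a FoxO element, the 2 kinds of factor described here. The 250 bases before its start (RefSeq, GRCm38.p6, chr4:134314870-134315119, plus strand) are printed 5′ to 3′, with these elements and a TATA box in capitals.
*Trim63* promoter: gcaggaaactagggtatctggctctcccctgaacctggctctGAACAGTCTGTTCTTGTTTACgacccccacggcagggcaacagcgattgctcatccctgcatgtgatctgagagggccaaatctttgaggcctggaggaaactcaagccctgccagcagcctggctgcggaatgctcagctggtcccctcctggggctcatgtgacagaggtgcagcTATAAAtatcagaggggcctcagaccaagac
The first block of capitals is 21 bases long (chr4:134314912-134314932). Its first 13 bases, 208 to 196 bases before the start, match the palindrome of GAACA, any 3 bases and TGTTC, which was found on either strand in 19 of 32851 promoter windows of 300 bases (0.0578%). The next 8 bases, 195 to 188 before the start, match TTGTTTAC, present in 403 windows (1.23%), and their first T is also the last letter of the half-site TGTTCT (6233 windows, 18.97%). The 2 elements themselves abut and do not overlap, and *Trim63* was the 1 window of all 32851 that held both. TATAAA, 31 to 26 bases before the start, occurred in 4473 windows (13.6%). RefSeq windows were matched for 8 of the 10 genes (9 windows) and not for *Foxo4* and *Fbxo32*, and none of the other 8 windows held the palindrome or TTGTTTAC. A match of letters is a description and does not show that a protein binds there.

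Among the other F-box genes, *Fbxo21* (chromosome 5, 117976730 to 118010201, plus strand) fell with CORT in the muscle of both genotypes. Its product is the substrate-binding part of an SCF ligase, and the gene is one of those named for muscle loss on fasting or denervation. In gastrocnemius it was at 15.7 CPM in GRfl/fl vehicle, 6.20 CPM in GRfl/fl CORT, 16.5 CPM in GR-mKO vehicle and 7.68 CPM in GR-mKO CORT. Both CORT libraries lay below both vehicle libraries. It fell by 1.27 (−1.66 to −1.03) in GRfl/fl mice and by 1.05 (−1.39 to −0.82) in GR-mKO mice on the log2 scale, and the counting interval of the difference between the changes, 0.22 (−0.17 to 0.65), included 0.

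*Fbxo31* (chromosome 8, 121549440 to 121578806, minus strand), whose product targets cyclin D1, differed in gastrocnemius past 1.5-fold by genotype and not by CORT. It was at 151 and 163 CPM in GRfl/fl vehicle and CORT and at 93.4 and 91.1 CPM in GR-mKO vehicle and CORT. The log2 difference of GR-mKO over GRfl/fl mice was −0.69 (−0.77 to −0.61) under vehicle and −0.84 (−0.92 to −0.76) under CORT, whereas the log2 changes with CORT were 0.11 (0.04 to 0.19) and −0.04 (−0.13 to 0.06).

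*Fbxo40* (chromosome 16, 36963460 to 36990467, minus strand), a muscle-specific F-box gene whose product targets the insulin receptor substrate IRS1, was among the most abundant of the 10 genes in gastrocnemius. It was at 531 and 457 CPM in GRfl/fl vehicle and CORT and at 374 and 433 CPM in GR-mKO vehicle and CORT. No comparison passed 1.5-fold, and the widest was the genotype difference under vehicle, −0.50 (−0.55 to −0.46). *Fbxo30* (MUSA1; chromosome 10, 11281330 to 11298052, plus strand), which BMP signaling holds down in muscle, was at 17.7, 16.4, 12.8 and 18.8 CPM in the same order. Its log2 change with CORT was −0.11 (−0.34 to 0.11) in GRfl/fl mice against 0.53 (0.32 to 0.78) in GR-mKO mice, the difference being 0.64 (0.35 to 0.98). The change in GR-mKO mice was within 1.5-fold by library totals and past it after TMM scaling (0.68).

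*Traf6* (chromosome 2, 101678429 to 101701669, plus strand), a RING-finger ligase that builds ubiquitin chains for NF-κB signaling, was at 25.3, 19.3, 19.6 and 18.9 CPM in GRfl/fl vehicle, GRfl/fl CORT, GR-mKO vehicle and GR-mKO CORT. The GRfl/fl vehicle library was the highest and the other 3 had overlapping counting intervals. None of its 6 CORT comparisons and 6 genotype comparisons over the 3 tissues passed 1.5-fold, with log2 values between −0.38 and 0.19.

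**Figure D3:**
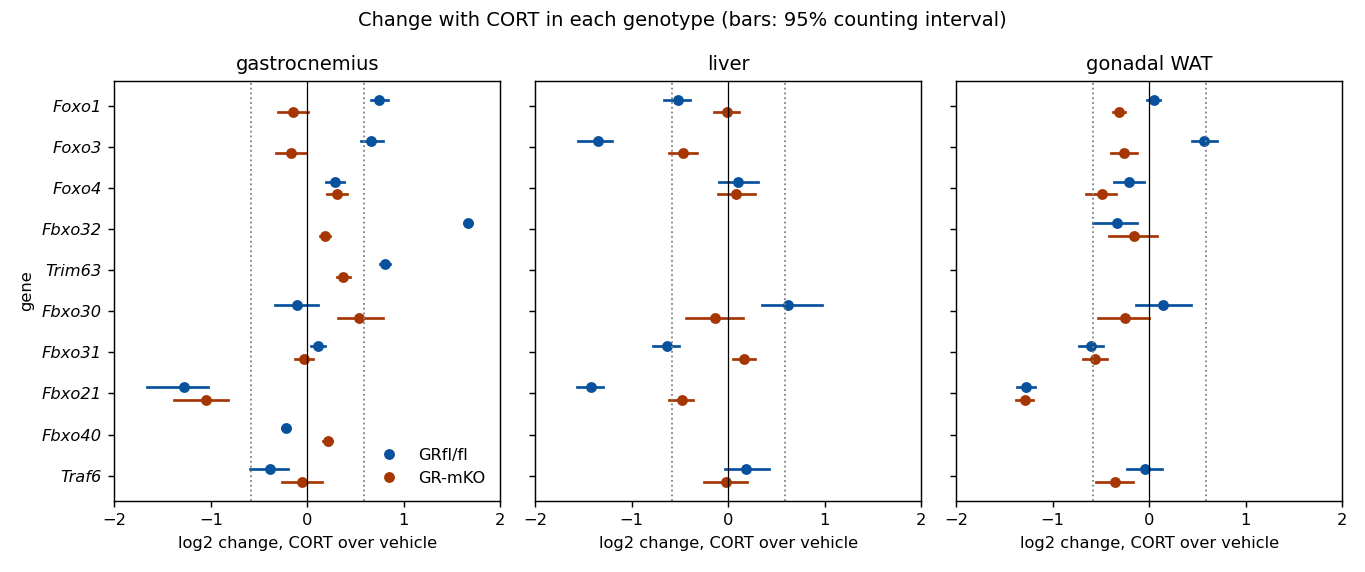
Log2 change with CORT over vehicle in GRfl/fl (blue) and GR-mKO mice (brown) in each tissue, with 95% counting intervals as bars and 1.5-fold as dotted lines. Genes with a mean under 5 CPM in a tissue are left out. In gastrocnemius *Fbxo32* lies at 1.67 for GRfl/fl against 0.18 for GR-mKO mice, and *Fbxo21* is below −1 in both genotypes.

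Compared between genotypes in gastrocnemius under vehicle, 2 of the 10 genes passed 1.5-fold, *Foxo1* and *Fbxo31*, and both were lower in GR-mKO mice. The background was 24.0% of all entries, 9.33% being lower. The median of the 10 genes was −0.44, against 0.07 for all tested entries. Under CORT 5 of the 10 passed, all lower in GR-mKO mice (*Foxo1*, *Foxo3*, *Fbxo32*, *Trim63* and *Fbxo31*), where 27.7% of all entries passed and 13.6% were lower. Their log2 differences were −2.12 (−2.26 to −2.02), −1.26 (−1.41 to −1.14), −1.35 (−1.39 to −1.31), −1.01 (−1.06 to −0.95) and −0.84 (−0.92 to −0.76). The median of the 10 genes was −0.51 and that of all tested entries 0.02. These comparisons share libraries with the CORT comparisons above and are not independent of them.

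**Figure D4:**
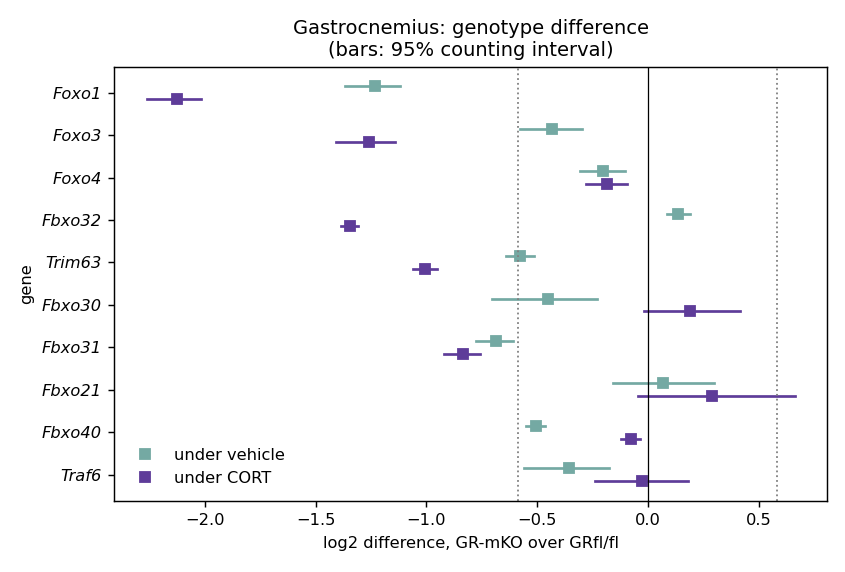
Log2 difference of GR-mKO over GRfl/fl gastrocnemius for each gene under vehicle (green) and under CORT (purple), with 95% counting intervals as bars and 1.5-fold as dotted lines. *Foxo1* and *Fbxo31* lie below the lower line under both treatments, *Foxo3*, *Fbxo32* and *Trim63* only under CORT when scaled by library totals.

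The CORT change differed by more than 1.5-fold between the genotypes for 4 of the 10 genes, lower in GR-mKO mice for *Foxo1*, *Foxo3* and *Fbxo32* and higher for *Fbxo30*, where 27.9% of all entries differed as much (16.2% lower and 11.7% higher in GR-mKO mice).

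**Figure D5:**
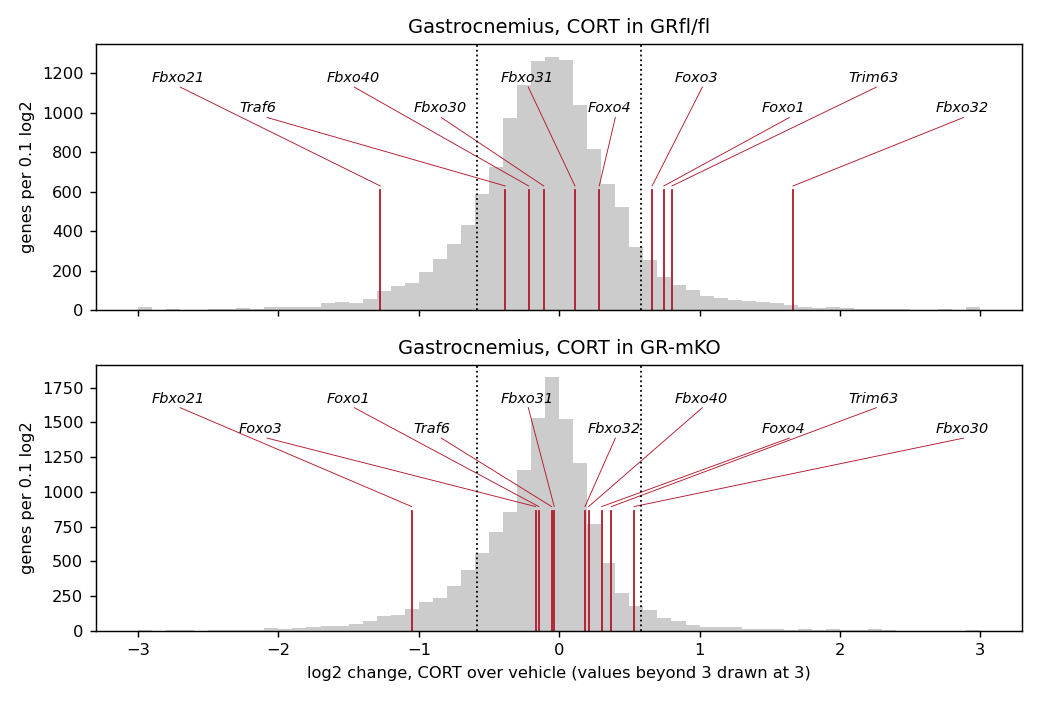
Histogram of the log2 change with CORT of all 13543 tested gastrocnemius entries (grey) in GRfl/fl (top) and GR-mKO mice (bottom), with the 10 genes as red lines and 1.5-fold as dotted lines. *Foxo3*, *Foxo1*, *Trim63* and *Fbxo32* lie beyond the upper line in GRfl/fl mice, and no gene of the 10 does in GR-mKO mice.

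Per transcript length, the order of the ligases in gastrocnemius was led by *Trim63*, at 129 CPM per kb in GRfl/fl vehicle, followed by *Fbxo40* at 103 and *Fbxo32* at 41.2. With CORT *Fbxo32* passed *Fbxo40* in GRfl/fl mice, 131 against 89.0 CPM per kb, and in both GR-mKO libraries it stayed below *Fbxo40*, at 45.3 and 51.5. *Fbxo31* came next among the ligases in all 4 libraries. *Traf6*, *Fbxo21* and *Fbxo30* were the lowest in GRfl/fl vehicle, at 4.10, 4.04 and 3.51, and their counting intervals overlapped.

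The cell makeup of the muscle libraries was not the same in all 4, and in bulk tissue fewer cells of a type and less RNA per cell cannot be told apart. The fibre markers summed to 104419 and 89934 CPM in GRfl/fl vehicle and CORT and to 72754 and 92282 CPM in GR-mKO vehicle and CORT. The GR-mKO vehicle library, the lowest of the 4 for these markers and for *Fbxo40* and *Trim63*, was the highest for the 5 macrophage markers (352 CPM, against 91.9 to 130 CPM in the others), the 5 fibroblast markers (2140 CPM, against 503 to 1411 CPM) and the 7 denervation and regeneration markers (149 CPM, against 33.7 to 82.5 CPM). With CORT the fibroblast markers went from 1411 to 503 CPM in GRfl/fl and from 2140 to 736 CPM in GR-mKO gastrocnemius, 4 of the 5 falling in each genotype, which are the libraries in which *Fbxo21* fell. The part of these differences in the values of *Fbxo21* and the other 9 genes was not tested. The 5 endothelial markers summed to 208 to 296 CPM. Of all these markers *Cidec* was listed at 0 in GR-mKO vehicle, *Ptprc* in GR-mKO CORT and *Myh3* in GRfl/fl vehicle and GR-mKO CORT. Adipocyte markers were at no more than 2.83% of their WAT level in the matching library, which at the same percentage corresponds to at most 4.92 CPM of *Foxo1*, and hepatocyte markers at no more than 0.183% of their liver level.

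Around the 10 genes, 18 upstream regulators of FoxO were listed, and in gastrocnemius 3 rose and 3 fell with CORT in GRfl/fl mice, whereas 1 rose and 2 fell in GR-mKO mice. The downward counts are near the background, 14.2% and 14.6% of all entries, and the upward background was 8.36% and 4.32%. *Pik3r1*, the regulatory subunit of PI 3-kinase, was at 31.9, 223, 32.5 and 21.9 CPM in the same order of libraries as above, with the single high library that *Fbxo32* also had. *Sgk1*, a kinase that like Akt phosphorylates FoxO, fell from 260 to 75.2 CPM in GRfl/fl mice and was at 211 and 217 CPM in GR-mKO mice. *Igf1* fell in both genotypes, by 1.21 (−1.47 to −1.03) and by 1.03 (−1.25 to −0.86), and *Foxo6*, a further FoxO gene, fell from 10.6 to 1.65 CPM in GRfl/fl mice and was at 14.2 and 9.64 CPM in GR-mKO mice.

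Of 20 known FoxO target genes, 8 rose and 1 fell with CORT in GRfl/fl gastrocnemius, and 3 rose and 2 fell in GR-mKO gastrocnemius, beside 8.36% upward and 14.2% downward of all entries in the one and 4.32% and 14.6% in the other. Their median log2 change was 0.11 and −0.05, beside −0.08 and −0.10 over all entries. *Cdkn1a*, the cell-cycle inhibitor p21, rose by 2.32 (2.22 to 2.45) in GRfl/fl mice, from 37.3 to 188 CPM, and was at 37.5 and 44.6 CPM in GR-mKO mice. *Irs2*, an insulin receptor substrate, rose in both genotypes, by 1.70 (1.61 to 1.81) and 0.83 (0.73 to 0.95). *Pdk4*, which restrains glucose oxidation, rose from 214 to 970 CPM in GR-mKO mice and from 406 to 967 CPM in GRfl/fl mice. *Ddit4*, an inhibitor of mTORC1, fell in both genotypes, by 1.82 (−2.15 to −1.62) and by 3.00 (−3.45 to −2.82). Under CORT, 8 of the 20 targets were lower and 2 higher in GR-mKO than in GRfl/fl muscle, beside 13.6% and 14.2% of all entries.

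*Ube2d1*, which encodes a ubiquitin-conjugating enzyme that works with SCF ligases, fell in GRfl/fl gastrocnemius, where it was at 283 CPM under vehicle and 165 CPM under CORT. The shares of all entries to set beside the next 3 lists are 8.36% upward and 14.2% downward for GRfl/fl and 4.32% and 14.6% for GR-mKO mice. Of 20 other ligases and ubiquitin proteases of muscle, 19 were tested, and 2 fell and none rose in GRfl/fl mice, namely *Fbxl22*, a muscle F-box gene, by 0.93 (−1.55 to −0.54) and *Trim55* (MuRF2) by 0.59 (−0.71 to −0.48). In GR-mKO mice 1 of the 19 fell and none rose, the ligase gene *Huwe1*, from 111 to 64.5 CPM. *Trim32*, the gene left out, was at 10.3 and 4.76 CPM in GRfl/fl vehicle and CORT and listed at 0 in GR-mKO CORT. Of 13 genes around *Traf6* and NF-κB, 2 fell and none rose in either genotype, *Nfkb1* and *Nfkbia* in GRfl/fl mice and *Nfkbia* and *Irak1* in GR-mKO mice, a share close to that of all entries. Of 8 BMP pathway genes and ligase substrates, none passed 1.5-fold in GRfl/fl mice, and 1 rose and 1 fell in GR-mKO mice, where *Myod1*, a substrate of atrogin-1, fell from 71.6 to 46.0 CPM.

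The genes closest in pattern to *Fbxo32* over the 4 gastrocnemius libraries, by the root mean square difference of centred log2 CPM among 9198 genes with a mean of at least 5 CPM, were *Csrp3* (0.03), *Napepld* (0.04), *Atp1b4*, *Arid5b* and *Atp10a* (0.09 to 0.10). For *Trim63* they were *Sertad2*, *Actn3*, *Fam126b*, *Uggt1* and *Rhobtb3*, and for *Foxo3* they were *Pag1*, *Olfr1336*, *Lhpp*, *Cd24a* and *Slc12a2*. The comparison rests on 4 libraries that all the genes share.

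In liver, where the receptor was not deleted, *Foxo3* fell with CORT in GRfl/fl mice, opposite to gastrocnemius. CORT changed 5 of the 9 tested members in GRfl/fl mice, 2 upward (*Fbxo30*, *Fbxo40*) and 3 downward (*Foxo3*, *Fbxo31*, *Fbxo21*), beside 27.2% of all 12485 tested entries (14.0% upward, 13.2% downward), and it changed none of the 9 in GR-mKO mice, beside 17.7%. The count in GRfl/fl mice was 3 with 2 CPM added and 4 when restricted to a mean of at least 5 CPM. *Foxo3* was at 46.3, 17.8, 47.3 and 34.1 CPM in GRfl/fl vehicle, GRfl/fl CORT, GR-mKO vehicle and GR-mKO CORT. It fell by 1.35 (−1.55 to −1.20) in GRfl/fl mice, and the log2 change in GR-mKO mice was −0.46 (−0.61 to −0.33), a difference of 0.89 (0.68 to 1.13). *Foxo1* was at 53.2, 36.8, 47.2 and 46.7 CPM and *Foxo4* at 18.8, 20.2, 20.6 and 21.9 CPM, with no change past 1.5-fold.

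*Fbxo21*, the highest of the 10 genes per length in vehicle-treated liver (20.7 CPM per kb in GRfl/fl mice), was at 80.3, 29.8, 58.8 and 41.9 CPM. It fell by 1.42 (−1.57 to −1.30) in GRfl/fl mice, and its log2 change in GR-mKO mice was −0.48 (−0.62 to −0.36). *Fbxo31* was at 57.4, 36.8, 54.7 and 61.4 CPM, with the GRfl/fl CORT library lowest and the other 3 between 54.7 and 61.4 CPM. *Fbxo30* was at 6.98, 10.98, 9.90 and 8.97 CPM, and *Traf6* at 14.96, 17.1, 15.9 and 15.6 CPM. The muscle ligases were almost absent. *Fbxo32* was at 1.60 to 3.21 CPM, *Fbxo40* at 9.01 to 25.0 counts (0.430 to 1.22 CPM), and *Trim63* at 0 counts in 3 libraries and 1 count in GR-mKO CORT, under the limit of 3 counts.

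Between the genotypes, 2 of the 9 liver genes passed 1.5-fold under vehicle (*Fbxo40* higher, *Fbxo32* lower, both under 3 CPM; background 9.92%) and 2 under CORT, *Foxo3* by 0.92 (0.75 to 1.12) and *Fbxo31* by 0.73 (0.61 to 0.87), both higher in GR-mKO mice (background 16.5%, 9.27% higher). The CORT changes differed by more than 1.5-fold between genotypes for 5 of the 9 genes, beside 26.1% of all entries (13.9% higher and 12.2% lower in GR-mKO mice). They were higher in GR-mKO mice for *Foxo3*, *Fbxo31* (0.80, 0.63 to 0.98) and *Fbxo21* (0.93, 0.76 to 1.13), and lower for *Fbxo30* (−0.75, −1.21 to −0.38) and *Fbxo40* (−1.29, −3.58 to −0.69, on 9.01 to 25.0 counts). In *Foxo3*, *Fbxo31* and *Fbxo21* the GRfl/fl CORT library was the lowest of the 4. Macrophage markers were also lowest in that library, at 25.0 CPM against 39.9 CPM or more in the others, as were endothelial markers, at 41.2 CPM against 58.6 to 60.7 CPM, and the part of either in the result was not tested. Of the FoxO targets, 6 rose and 4 fell in GRfl/fl liver and 5 rose and 1 fell in GR-mKO liver (14.0% and 13.2%, and 9.44% and 8.31%, of all entries), with *Cdkn1a* at 1.12 and 41.0 CPM in GRfl/fl vehicle and CORT.

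In gonadal WAT, *Fbxo21* was the gene that changed most, and by the same amount in both genotypes. It was at 171, 70.5, 192 and 78.5 CPM in GRfl/fl vehicle, GRfl/fl CORT, GR-mKO vehicle and GR-mKO CORT, and fell by 1.27 (−1.37 to −1.19) and by 1.28 (−1.37 to −1.20). The difference of the 2 changes was −0.01 (−0.13 to 0.11). Over the 3 tissues *Fbxo21* was past 1.5-fold and lower with CORT in 5 of the 6 comparisons, the exception being GR-mKO liver.

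CORT changed 2 of the 8 tested genes in GRfl/fl WAT, *Fbxo21* and *Fbxo31*, beside 32.6% of all 14218 tested entries (19.2% downward), and 1 of the 8, *Fbxo21*, in GR-mKO WAT, beside 25.1% (16.4% downward). *Fbxo31* was at 65.98, 43.4, 66.4 and 44.95 CPM, with log2 changes of −0.60 (−0.73 to −0.48) and −0.56 (−0.69 to −0.44) on either side of the threshold, so the CORT libraries of both genotypes lay below both vehicle libraries. *Foxo3* was at 39.0, 58.0, 50.6 and 42.3 CPM. Its log2 change was 0.57 (0.44 to 0.71) in GRfl/fl mice, just inside 1.5-fold, and −0.26 (−0.39 to −0.13) in GR-mKO mice, and it was the 1 gene of the 8 whose CORT change differed by more than 1.5-fold between genotypes, at −0.82 (−1.02 to −0.65), beside 22.2% of all entries. After TMM scaling *Foxo3* passed 1.5-fold in GRfl/fl WAT (0.64) and *Fbxo31* did not (−0.52).

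*Foxo1*, the most abundant FoxO gene of WAT per length, was at 169, 174, 222 and 179 CPM there, and *Foxo4* was at 38.8, 33.6, 40.9 and 29.0 CPM. *Fbxo32* was at 13.1 to 18.2 CPM, *Fbxo30* at 9.77 to 13.3 CPM and *Traf6* at 20.2 to 25.9 CPM, and none of them passed 1.5-fold. *Trim63* and *Fbxo40* had at most 2 and 3 counts in a library and were not tested. Neither genotype comparison in WAT put any of the 8 genes past 1.5-fold, beside 9.67% of all entries under vehicle and 10.6% under CORT. With CORT the macrophage markers went from 628 to 1573 CPM in GRfl/fl and from 834 to 1567 CPM in GR-mKO WAT, and the endothelial markers from 579 to 225 CPM and from 534 to 302 CPM. The adipocyte markers went from 25973 to 17533 CPM and from 27514 to 19312 CPM, and the part of these shifts in the values of *Fbxo21*, *Fbxo31* and *Foxo3* was not tested.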

How the data were processed

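RNA was measured in 12 pooled libraries (DNBSEQ-G400, paired reads). The authors quantified reads with Salmon 1.2.1 on GENCODE M20 protein-coding transcripts (mm10), imported them into R 3.5.0 with tximport on the length-scaled scale and kept 1 entry per symbol, so the deposited values are expected counts that were not scaled to one another. The study's methods name summarizeToGene, yet each entry bears 1 transcript identifier, so whether a value is a transcript's or a gene's sum was not settled. This identifier was the same in all 3 tissues for 9 of the 10 genes and differed for *Trim63*. Only 3 of the 10 have a single protein-coding transcript in GENCODE M21, and 69, 61 and 82 entries of gastrocnemius, liver and WAT were at 0 in 1 library and at least 5 CPM in the other 3. Levels per kb assume the transcript named. Lengths and positions came from M21, promoters from RefSeq.

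CPM, log2 ratios after adding 0.5 CPM, 95% Wilson (levels) and exact Clopper-Pearson (ratios, computed without the added 0.5 CPM) intervals on rounded counts were computed in Python 3.11.15 with pandas 2.3.3 and scipy 1.17.1, and the interval of a difference of changes from the reciprocal counts. The scripts were tested on simulated data. NOISeq, the authors' method, rests on simulated replicates, so a fold of 1.5 stood in for it. Alternatives were 0.1 or 2 CPM added, edgeR 4.0.16 TMM or median-of-ratios scaling, a fold of 2 and a mean of at least 5 CPM. The members and lists were chosen with earlier results of these data known. Named genes are the 10, *Nr3c1*, up to 4 genes per list with the largest change among those with a mean of at least 5 CPM (*Pdk4* and *Myod1* were so named in GR-mKO mice), and the 5 closest in pattern. The result of 1 list, on the shared enzymes of ubiquitination, is not reported here as a count.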

Additional observations from a re-analysis of the deposited data

Results flagged for a closer look

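Each value here is a difference between 2 log2 changes with CORT that lie on opposite sides of 0, with at least 1 of them past 1.5-fold and with both counting intervals leaving out 0. There was 1 library per group, so none of the differences was tested.

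Between tissues of GRfl/fl mice, the change of *Foxo3* in liver minus that in gastrocnemius was −2.01, and its change in gonadal WAT minus that in liver was 1.92. The change of *Foxo1* in liver minus that in gastrocnemius was −1.27. The change of *Fbxo32* in WAT minus that in gastrocnemius was −2.0. For *Fbxo31* the difference from gastrocnemius was −0.75 in liver and −0.71 in WAT. For *Fbxo40* the change in liver minus that in gastrocnemius was 1.10, on 9.01 and 25.0 counts in liver. The tissues differ in their retained *Trim63* transcript but not in those of the genes named here.

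Between genotypes, the change of *Foxo3* in gastrocnemius was −0.83 in GR-mKO minus GRfl/fl mice, and that of *Fbxo31* in liver was 0.80. For *Foxo1* in gastrocnemius (−0.89), and *Fbxo30* (−0.75) and *Fbxo40* (−1.29) in liver, the changes also had opposite signs, but the counting interval in GR-mKO mice included 0. The flagged changes in GR-mKO mice were small, −0.17 (−0.32 to −0.02) for *Foxo3* and 0.16 (0.05 to 0.28) for *Fbxo31*. TMM scaling moved the median of all entries by 0.15 and −0.07 in those comparisons. Whether these intervals leave out 0 thus depends on the scaling.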

How the results depend on the processing

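With 0.1 CPM added, the counts of genes past the fold stayed within 1.5 times in all 15 comparisons (12 changes and 3 differences). With 2 CPM added, the count went from 5 to 3 for CORT in GRfl/fl liver, from 2 to 1 for CORT in GRfl/fl WAT and from 2 to 0 for GR-mKO under vehicle in liver. Restricted to a mean of at least 5 CPM, the last was again 0. TMM and median-of-ratios scaling each gave 2 in place of 1 for CORT in GR-mKO gastrocnemius, *Fbxo30* being added. At 2-fold the counts were 2 in place of 5 (CORT in GRfl/fl gastrocnemius), 1 in place of 2 (GR-mKO under vehicle in gastrocnemius), 1 in place of 4 (difference of CORT changes in gastrocnemius), 2 in place of 5 (CORT in GRfl/fl liver), 0 in place of 2 (GR-mKO in liver under CORT, and also under vehicle), 1 in place of 5 (difference in liver), 1 in place of 2 (CORT in GRfl/fl WAT) and 0 in place of 1 (difference in WAT); a stricter fold can only lower a count. None of the 432 values under alternatives turned its sign where the main change passed 1.5-fold, an outcome that was fixed in advance. Adding the same CPM to both libraries cannot turn a sign, and the shifts made by the scalings were smaller than that fold. TMM and median-of-ratios scaling moved the median of all entries by 0.15 and 0.14 for CORT in GR-mKO gastrocnemius, by 0.08 and 0.11 for CORT in GRfl/fl gastrocnemius and by 0.12 and 0.13 for CORT in GR-mKO WAT. Some smaller changes did turn sign, in gastrocnemius and in WAT. Under TMM, for example, the CORT changes of *Foxo1*, *Fbxo31* and *Traf6* in GR-mKO gastrocnemius went from −0.15, −0.04 and −0.05 to 0.01, 0.12 and 0.10. No paired analysis was possible because each group had 1 library, and for the same reason no replicate could be left out. Depth limits *Trim63* and *Fbxo40* outside muscle.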
